A study of Mus musculus with 6 samples.

Results

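The complement genes described here are 32 listed mouse genes for complement proteases, components, lectins, regulators and receptors, out of 55487 gene rows in the count tables. Members were taken by symbol (*Hc* encodes C5), and all 32 matched 1 Ensembl identifier each. RNA sequencing had been run on hepatocytes, the plasma-protein-producing cells of the liver, from mice aged 6 to 8 weeks of 2 genotypes bred from heterozygous parents, AEG-1-C75S homozygotes (C75S) and wild-type animals (WT). AEG-1 is the endoplasmic reticulum membrane protein encoded by *Mtdh*, and C75S puts a serine in place of a cysteine that is palmitoylated. RNA was collected 48 h after the cells were isolated, and every sample has the treatment label Control. Each genotype had 3 libraries, which the labels do not tie to separate animals, so the p-values measure the spread between libraries and that spread may be technical. The labels do not give how the allele was made.

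Complement is a chain of plasma proteases and pore-forming proteins that coats and lyses microbes, and the liver is its main source. The classical pathway starts from antibody through C1q, C1r and C1s, the lectin pathway starts from sugar-binding lectins that carry MASP proteases, and both cleave C4 and C2. All routes meet at C3, the alternative pathway amplifies it with factors B and D, and C5 to C9 form the membrane attack complex. Soluble and membrane-bound regulators hold the chain in check on host cells.

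Gene counts per library ran from 16944723 (C75S replicate 1) to 21044292. On these unscaled totals, 3 counts corresponded to 0.143 to 0.177 counts per 1000000, a floor for counting error only. CPM values are counts per 1000000 on library sizes scaled by the TMM method. Per-length levels are FPKM, the CPM divided by kilobases of exon. *Mtdh* stood at a mean of 199.8 CPM (SD 10.5, n = 3) among C75S libraries and 197 CPM (SD 5.18, n = 3) among WT libraries, a gene-level value that does not read the mutated codon. The hepatocyte markers *Alb*, *Ttr*, *Apoa1*, *Cps1*, *Hnf4a* and *Tat* summed to 62576 to 74800 CPM in C75S and 70524 to 78145 CPM in WT. Lists of markers of other liver cells were uneven. All 4 neutrophil markers were at 0 in every library, and the Kupffer cell markers *Clec4f*, *Cd5l* and *Timd4* had 4, 1 and 1 counts over all 6 libraries. *Cd68* of the same list had 118 CPM (mean of C75S) and 117 CPM (mean of WT). In the same order, *Spp1* of the cholangiocyte list had 131 and 91.0 CPM, *Reln* of the stellate cell list 58.7 and 75.2 CPM, and *Stab2* of the endothelial list 24.9 and 26.4 CPM. The hepatocyte marker of lowest level, *Tat*, had 109.96 and 108 CPM. In whole-culture RNA of this kind, fewer cells of a type and less RNA per cell cannot be told apart.

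Of the 32 genes, 25 had enough counts to be tested, and 3 differed between the genotypes at an adjusted p-value under 0.05. *Clu*, encoding clusterin, which keeps the terminal complex from inserting into membranes, was 1.26-fold higher in C75S. *C8a*, encoding the alpha chain of C8, was 1.29-fold higher. *Cfhr2*, a gene for a secreted protein of the complement regulator family, was lower, at 0.860 of its WT level. Over all 12741 genes tested, 1.74% were called higher and 1.37% lower (3.11% in either direction, edgeR quasi-likelihood test with Benjamini-Hochberg adjustment), against 2 higher and 1 lower among the 25. At an unadjusted p-value under 0.05, 8 of the 25 were higher and 3 lower, where 6.91% and 6.51% of all tested genes were. In 7 of the 25 every C75S value lay above every WT value and in 4 every one lay below, where 9.02% and 8.96% of all tested genes did (18% in either direction). The median log2 fold change was 0.07 over the 25 and -0.003 over all tested genes.

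Promoter sequence was available from RefSeq (GRCm38.p6) for 24 of the 32 genes, including 2 of the 3 called ones. The windows hold the 250 bases before the start site, and they are shown for the called genes because these are the members whose transcript level differed between genotypes. The *C8a* window is chr4:104876399-104876648 and the *Cfhr2* window chr1:139858700-139858949, both on the minus strand of the genome and written 5′ to 3′ along the gene. Capitals mark a match to TTCNNNGAA, the core of STAT sites.
C8a: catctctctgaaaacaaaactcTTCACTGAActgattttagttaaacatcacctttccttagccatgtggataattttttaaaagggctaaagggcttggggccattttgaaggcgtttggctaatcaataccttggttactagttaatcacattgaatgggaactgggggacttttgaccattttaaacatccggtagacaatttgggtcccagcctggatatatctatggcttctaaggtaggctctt
Cfhr2: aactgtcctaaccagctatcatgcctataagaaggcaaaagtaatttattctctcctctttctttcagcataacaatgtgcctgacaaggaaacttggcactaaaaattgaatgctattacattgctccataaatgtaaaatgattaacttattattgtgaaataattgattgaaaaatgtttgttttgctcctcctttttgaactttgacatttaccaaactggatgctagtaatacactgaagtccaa

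The *C8a* match begins 228 bases before the start site, and TTCNNNGAA occurred in 7.02% of 32851 promoter windows of this length and in 2 of the 20 windows of tested complement genes, those of *C8a* and *Masp2*. Both strands were searched for 6 further motifs. Neither printed promoter held TTGCNNAA (C/EBP, in 9.56% of all windows), CAAAGTCCA (HNF4, 0.384%), an NF-kB-type motif of GGG and CC with 5 bases between (45.8%), an interferon response motif of GAAA and GAAA with 2 bases between (2.98%), or the HNF1 motif in its short (0.134%) or long form (0.00913%), the long one containing the short one. TTGCNNAA was found before *C3*, *C9* and *C1s1* among tested genes, and the short HNF1 motif before *Hc*. A match is a description of these letters and not a bound site.

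The levels of the complement genes per length ran from 0.004 FPKM (0.00403) for *Colec10* to 1114 FPKM for *Clu* over the 6 libraries. *Clu* was the 29th highest of 23227 genes with a count. *C3*, the hub of all routes, was next at 576 FPKM (58th), followed by *Mbl2*, encoding mannose-binding lectin C, at 440 (74th), *C1s1*, a C1 protease, at 259.6, *Cfi*, the protease that inactivates C3b and C4b, at 216, *Cfhr2* at 113, *C4b* at 64.2 and *C8b* at 45.3 FPKM. The ranges of these 8 genes over the 6 libraries did not overlap from one to the next. Below them the order was less certain: *C9* (33.3 FPKM), *Cd59a*, *Masp2*, *Hc*, *C8g* and *Masp1* (20.8 FPKM) each overlapped its neighbour in rank, as did *C1ra* (16.4), *C6* (15.1) and *C4bp* (13.3), and *Cfb* (1.09), *C4a* (0.978) and *Cfp* (0.947).

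**Figure D1:**
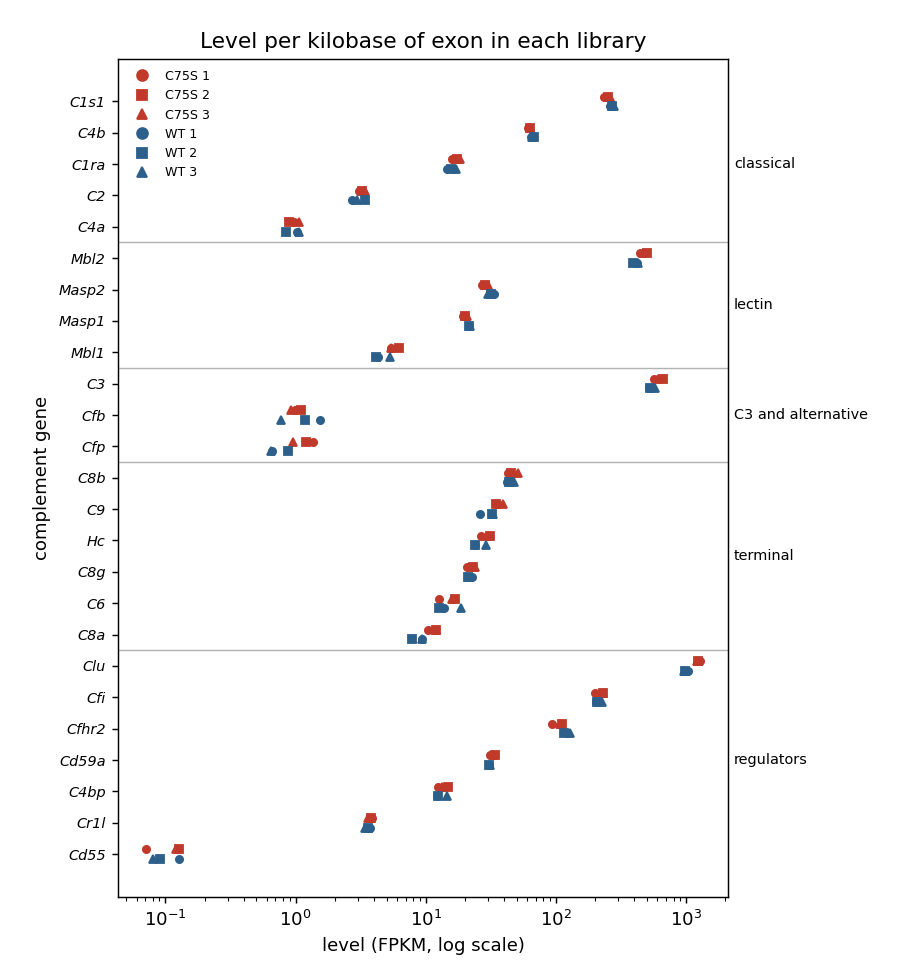
Level of the 25 tested complement genes in each library, in FPKM on a log axis, grouped by role, with C75S libraries in red and WT libraries in blue. *Clu*, *C3* and *Mbl2* stand farthest right, with means over the libraries of 1114, 576 and 440 FPKM, and the genotypes differ far less than the genes do.

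The members together made up 1.06% to 1.12% of gene counts in the C75S libraries and 0.934% to 0.966% in the WT libraries. Their CPM summed to 10847 ± 351 (SD over 3 C75S libraries) and 9578 ± 193 (SD over 3 WT libraries), a ratio of 1.13, and the 2 groups of sums did not overlap. *Clu* and *C3* alone held 63.7% to 69.5% of that sum. Without *Clu* the sums were 6574 ± 434 and 6195 ± 276 CPM, a ratio of 1.06. Without these 2 genes they were 3423 ± 185 and 3416 ± 127 CPM, a ratio of 1.00. Both genes had estimates above 0, so leaving them out lowers the ratio. A sum does not show that its single members were unchanged.

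In the classical pathway, 5 of 6 genes were tested and 0 were called (3.11% of all tested genes). At an unadjusted p-value under 0.05, 1 was lower (6.51% of tested genes). *C1s1*, the most abundant, encodes the C1s protease that cleaves C4 and C2. It was at 738, 787 and 812 CPM in C75S replicates 1 to 3 and 811, 849 and 877 CPM in WT replicates 1 to 3, so C75S replicate 3 just exceeded WT replicate 1 and the groups overlapped. Its log2 fold change of -0.12 (SE 0.05) had an edgeR adjusted p-value of 0.328. *C1ra*, encoding the protease that activates C1s, had a log2 fold change of 0.13 (95% interval -0.02 to 0.27). *C4b*, the main mouse C4 gene, was at 356 ± 7.94 CPM (C75S) and 376 ± 8.91 CPM (WT; SD, n = 3 in both, here and below). All of its C75S values lay below all WT values (8.96% of tested genes). Its edgeR adjusted p-value was 0.520 and its 95% interval -0.18 to 0.02.

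The other classical genes were low. *C2*, the protease subunit of the C3 convertase, was at 12.5 ± 0.69 CPM (C75S) and 11.8 ± 1.33 CPM (WT). *C4a* was at 6.07 ± 0.57 and 6.06 ± 0.75 CPM, and *C1rb* had 4 counts over all 6 libraries. Uniquely placed reads set these values. Of the 50-base stretches of *C1rb* transcripts, 59.2% occur in *C1ra*, and 30.6% of those of *C4a* occur in *C4b*. The limit also holds for the copies of higher level. Of the stretches of *C1ra*, *C4b* and *C1s1*, 50.8%, 34.6% and 35.1% occur in other genes. The division of reads between such copies is therefore uncertain. *C2* shares 42.8% of its exon bases with *Gm20547* on the same strand, which itself had 0 counts in all 6 libraries. Reads in that stretch could be assigned to neither gene, so the level of *C2* is a lower estimate.

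In the lectin pathway, 4 of 7 genes were tested and 0 were called. Both mannose-binding lectins, the sugar sensors, had all C75S values above all WT values (9.02% of tested genes), and both MASP proteases, which the lectins activate, had all C75S values below all WT values (8.96%). At an unadjusted p-value under 0.05, 2 were higher (6.91% of tested genes) and 1 lower (6.51%). *Mbl2* was at 484, 543 and 504 CPM in C75S and 455, 428 and 463 CPM in WT. The groups did not overlap, but its log2 fold change of 0.19 (SE 0.05) missed the threshold with an edgeR adjusted p-value of 0.0566. It was called once C75S replicate 1 was left out (0.22, edgeR adjusted p = 0.0294). The log2 fold change fell to 0.14 without C75S replicate 2 (edgeR adjusted p = 0.308) and to 0.15 without WT replicate 2 (0.318). *Mbl1*, the second lectin, was at 8.56, 9.82 and 8.51 CPM in C75S and 6.79, 6.53 and 8.39 CPM in WT, and changed by 0.31 on the log2 scale (SE 0.14) with an edgeR adjusted p of 0.323.

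*Masp2*, the protease that cleaves C4 and C2 in this pathway, was at 89.5, 95.1 and 98.6 CPM in C75S and 110, 106 and 99.4 CPM in WT. The closest pair of libraries differed by less than 1 CPM, and the log2 fold change was -0.15 (SE 0.06, edgeR adjusted p = 0.165). *Masp1*, which activates MASP-2, was at 197 ± 7.32 CPM (C75S) and 211 ± 2.22 CPM (WT; log2 fold change -0.09, edgeR adjusted p = 0.406). *Fcna*, *Colec10* and *Colec11*, the ficolin and collectins of this pathway, were too low to test, with 32, 2 and 3 counts in all.

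Among *C3* and the alternative pathway genes, 3 of 4 were tested and 0 were called. At an unadjusted p-value under 0.05, 2 were higher (6.91% of tested genes). *C3* was at 2898, 3434 and 3121 CPM in C75S and 2665, 2723 and 2948 CPM in WT. C75S replicate 1 lay below WT replicate 3, so the groups overlapped, and the log2 fold change of 0.18 (SE 0.06) had an edgeR adjusted p-value of 0.146. It was 0.12 without C75S replicate 2 (edgeR adjusted p = 0.547), and 0.24 and called without C75S replicate 1 (0.0359). *Cfp*, encoding properdin, which stabilises the alternative convertase and is made largely by myeloid cells, was at 2.35, 2.09 and 1.66 CPM in C75S and 1.14, 1.51 and 1.12 CPM in WT. Every C75S library was higher, on 194 counts in all, and the log2 fold change of 0.69 had a 95% interval from 0.06 to 1.32 and an edgeR adjusted p-value of 0.303. The 8 Kupffer cell markers listed summed to 96.1 to 140 CPM in C75S and 102 to 134 CPM in WT, nearly all of it *Cd68*. Of the 2 testable markers 0 were called, with log2 fold changes of 0.02 for *Cd68* and 0.15 for *Csf1r*. *Marco*, too low to test, had 6 counts in each C75S library and 1, 0 and 2 in WT replicates 1 to 3. *Clec4f* went the other way, with its 4 counts in WT replicate 1. Their part in the *Cfp* value was not tested.

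*Cfb*, encoding factor B, the protease subunit of the alternative C3 convertase, was at 2.81, 3.08 and 2.62 CPM in C75S and 4.37, 3.36 and 2.18 CPM in WT, with the WT libraries spread on both sides of C75S. The log2 fold change was -0.22 (95% interval -0.71 to 0.28). *Cfb* shares 79.5% of its exon bases with *Gm20547* on the same strand, where reads could be assigned to neither gene, so its level is a lower estimate too. *Cfd*, encoding factor D, which cleaves factor B and is known as the adipocyte protein adipsin, had 9 counts in all, 7 of them in WT replicate 1.

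**Figure D2:**
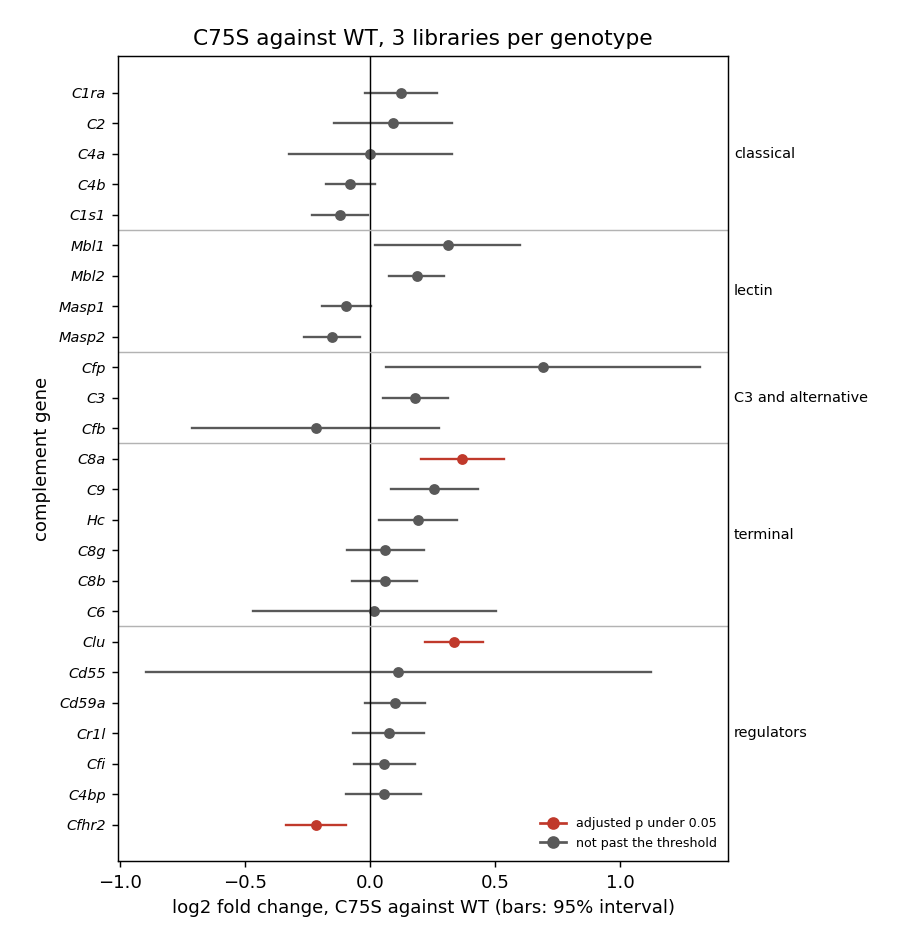
Log2 fold change of C75S against WT for the 25 tested complement genes, grouped by role, with approximate 95% intervals from the edgeR fit. Red marks the 3 genes past the threshold (*C8a* at 0.37, *Clu* at 0.34 and *Cfhr2* at -0.22). Estimates lie above 0 for all 6 terminal genes, 6 of the 7 regulators and 19 of the 25 genes (49.1% of all tested genes).

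The terminal genes listed encode C5, C6, C8 and C9, parts of the membrane attack complex, and all 6 were tested. *C7* is not among the members and had 0 counts in every library. *C8a* rose, and the others did not pass the threshold, although all 6 estimates were above 0 (median 0.13, from 0.02 to 0.37) and 3 had an unadjusted p-value under 0.05. Over all tested genes, 6.91% were higher at that unadjusted level and 49.1% of estimates were above 0. Estimates above 0 were not particular to the terminal genes: 6 of the 7 regulators and 19 of the 25 tested members had them. *C8a* was at 37.5, 43.4 and 43.8 CPM in C75S and 34.2, 28.7 and 33.7 CPM in WT. All C75S libraries were above all WT libraries, and the log2 fold change was 0.37 (SE 0.08, edgeR adjusted p = 0.00918). The call rested in part on WT replicate 2, the lowest library: without it the log2 fold change was 0.29 and the edgeR adjusted p-value 0.0907.

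The C8 protein joins the alpha chain to a gamma chain and a beta chain, the products of *C8g* and *C8b*. *C8b*, the terminal gene of highest level per length, was at 109, 115 and 129.6 CPM in C75S and 106, 112 and 121 CPM in WT. These values interleaved, and its log2 fold change was 0.06 (95% interval -0.07 to 0.19). *C8g* was at 33.8 ± 2.41 CPM (C75S) and 32.4 ± 1.08 CPM (WT), with a log2 fold change of 0.06 (95% interval -0.09 to 0.22). *C8a* and *C8b* lie next to each other on chromosome 4, at 104815679 to 104876398 on the minus strand and 104766317 to 104804548 on the plus strand. Whether *C8a* differed from *C8b* or *C8g* in its change was not tested.

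*C9*, which forms the ring of the pore, was at 89.6, 88.1 and 101 CPM in C75S and 66.2, 82.5 and 84.0 CPM in WT. The groups did not overlap, WT replicate 1 was the low library, and the log2 fold change of 0.26 (SE 0.08) had an edgeR adjusted p-value of 0.131. The fold change was 0.16 on the log2 scale without WT replicate 1 (edgeR adjusted p = 0.236). *Hc*, encoding C5, whose cleavage starts the terminal chain, was at 167, 195 and 186 CPM in C75S and 149, 150.4 and 180.5 CPM in WT. WT replicate 3 lay inside the C75S range, and the log2 fold change was 0.19 (SE 0.07, edgeR adjusted p = 0.232). Without WT replicate 3 it was 0.29 and called (edgeR adjusted p = 0.0103). It was 0.14 without C75S replicate 2 (edgeR adjusted p = 0.487) and 0.15 without WT replicate 2 (0.483). *C6*, the next component to join, had the largest SE of the terminal genes (0.19 on the log2 scale), at 54.0 ± 7.81 CPM (C75S) and 53.5 ± 11.3 CPM (WT), and its 95% interval of -0.47 to 0.50 left its direction undetermined.

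**Figure D3:**
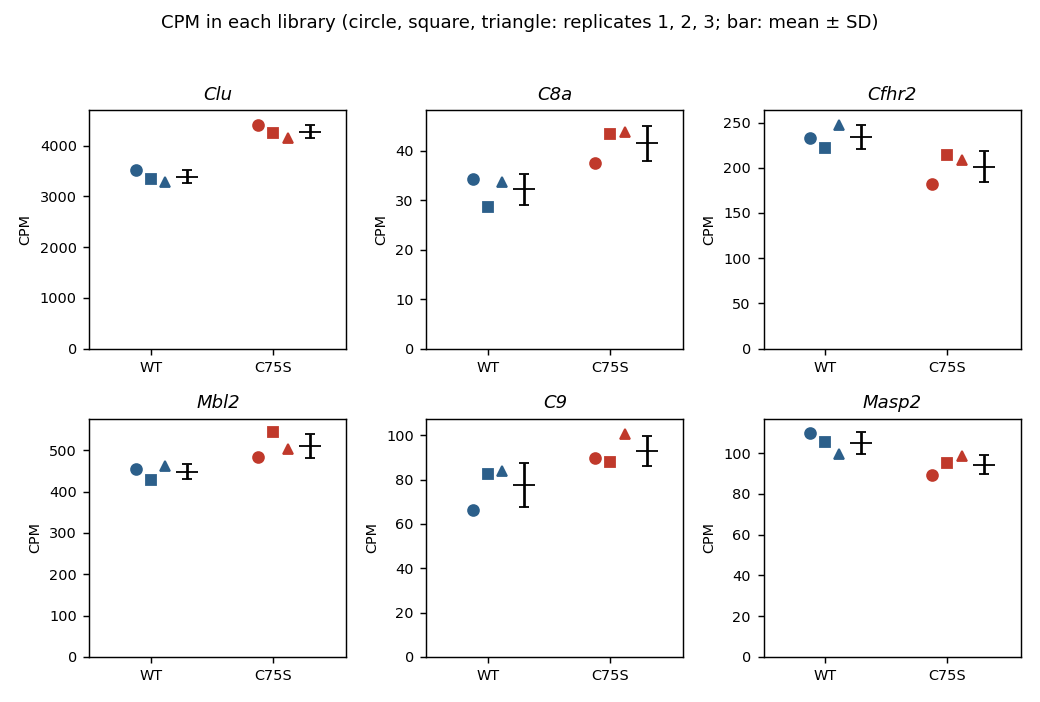
CPM in each library for the 3 called genes (top) and for 3 genes whose groups did not overlap but that missed the threshold (bottom), on axes from 0, with the mean ± SD of 3 libraries beside the points. The gap is widest for *Clu*, between 3527 and 4158 CPM, and narrowest for *Masp2*, between 98.6 and 99.4 CPM.

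All 7 regulators were tested, and *Clu* and *Cfhr2* changed in opposite directions. *Clu* was at 4411, 4252 and 4158 CPM in C75S and 3527, 3339 and 3286 CPM in WT. The lowest C75S library was well above the highest WT library, and the log2 fold change was 0.34 (SE 0.06, edgeR adjusted p = 0.000626). It was the one member called in all 15 alternative fits, with log2 fold changes from 0.31 to 0.37. The 5 listed markers of cholangiocytes, the bile duct cells, summed to 144 to 197 CPM in C75S and 122 to 133 CPM in WT, a sum made up mostly of *Spp1* (edgeR adjusted p = 0.235). The 4 testable ones had a median log2 fold change of 0.487. *Krt19* was called higher (0.80), and *Spp1* (0.53), *Krt7* (0.44) and *Sox9* (-0.06) were not called. Every C75S value of *Spp1* lay above every WT value. The fifth marker, *Epcam*, had 22 counts in all, with every C75S value below every WT value. The part of these markers in the *Clu* value was not tested.

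*Cfhr2* (chromosome 1, 139804167 to 139858702) was at 182, 214 and 208 CPM in C75S and 233, 222 and 248 CPM in WT. All C75S libraries were lower, with a fitted log2 change of -0.22 with an SE of 0.06 and an edgeR adjusted p of 0.0394. The call was close to the threshold. It was lost without C75S replicate 1 (log2 fold change -0.15, edgeR adjusted p = 0.235), without WT replicate 1 (0.100), WT replicate 2 (0.0582) or WT replicate 3 (0.197), and with limma-voom (0.0508). Of the 50-base stretches in *Cfhr2* transcripts, 29.2% occur in other genes, so its count rests on the distinct part.

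The other 5 regulators did not pass the threshold. *Cfi* was at 488 ± 41.8 CPM (C75S) and 469.7 ± 24.1 CPM (WT), *C4bp*, the C4b-binding cofactor for *Cfi*, at 91.0 ± 8.58 and 87.8 ± 8.41 CPM, and *Cr1l*, encoding the rodent membrane regulator Crry, at 39.0 ± 1.66 and 37.0 ± 1.38 CPM. Their 95% intervals lay within -0.10 and 0.22 on the log2 scale. *Cd59a*, which blocks C9 at the membrane, was at 59.3 ± 2.26 and 55.4 ± 0.51 CPM, with all C75S libraries above all WT libraries (log2 fold change 0.10, edgeR adjusted p = 0.501). *Cd55*, encoding decay-accelerating factor, was near the limit of detection on 60 counts in all, and its interval of -0.90 to 1.12 makes a change undetectable at this depth.

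The receptors for the C3a and C5a fragments, *C3ar1* and *C5ar1*, are known from myeloid cells and were too low to test. *C3ar1* had 6 counts, 5 of them in C75S replicate 1. *C5ar1* had 17 counts, 11 of them in WT replicate 1. These single libraries hold most of the counts, and a difference between genotypes was not detectable.

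Of the 27 other complement genes reported here, 12 were tested with edgeR and 0 were called (0 with DESeq2 and 0 with limma-voom), with 1 at an unadjusted p-value under 0.05, as were 13.4% of all tested genes. That gene was *Cd93*, encoding a membrane receptor of endothelial and myeloid cells, at 2.63 ± 0.14 CPM (C75S) and 1.58 ± 0.17 CPM (WT), with an edgeR adjusted p of 0.146. It was chosen for naming after its value was seen. The 6 endothelial markers summed to 31.0 to 41.5 CPM in C75S and 29.6 to 40.0 CPM in WT, with 0 of 5 testable ones called, a median log2 fold change of 0.685, and *Lyve1* (0.85) and *Pecam1* (0.70) at unadjusted p-values of 0.00686 and 0.0161. *Stab2* had a log2 fold change of -0.09 and *Clec4g* had 2 counts in all. Their part in the *Cd93* value was not tested. *Vtn*, *Serping1* and *Cpn1*, which encode vitronectin, C1 inhibitor and carboxypeptidase N, were the 3 of highest level per length in this list. Their mean levels were 406, 162 and 48.6 FPKM in C75S and 427, 162 and 52.5 FPKM in WT, with adjusted p-values of 0.692, 0.989 and 0.417. *C7*, *Cd55b*, *Itgax*, *Fcnb* and *Csmd1* had 0 counts in every library, and the C1q chains *C1qa*, *C1qb* and *C1qc*, made by macrophages, had 49, 58 and 30 counts in all.

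By chromosome, *C4b*, *C4a*, *Cfb*, *C2* and *C3* lie on chromosome 17, where 0 members were called, and *Cd55*, *C4bp*, *Cfhr2* and *Cr1l* on chromosome 1, where *Cfhr2* was the 1 called. The targeted gene *Mtdh* lies on chromosome 15 with *C6*, *C9* and *Colec10*, at distances of 29.3, 27.6 and 20.3 Mb. *C6* and *C9* were tested and not called, and *Colec10* was too low to test. Over all tested genes, 3.11% were called, so few calls are to be looked for among so few members.

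**Figure D4:**
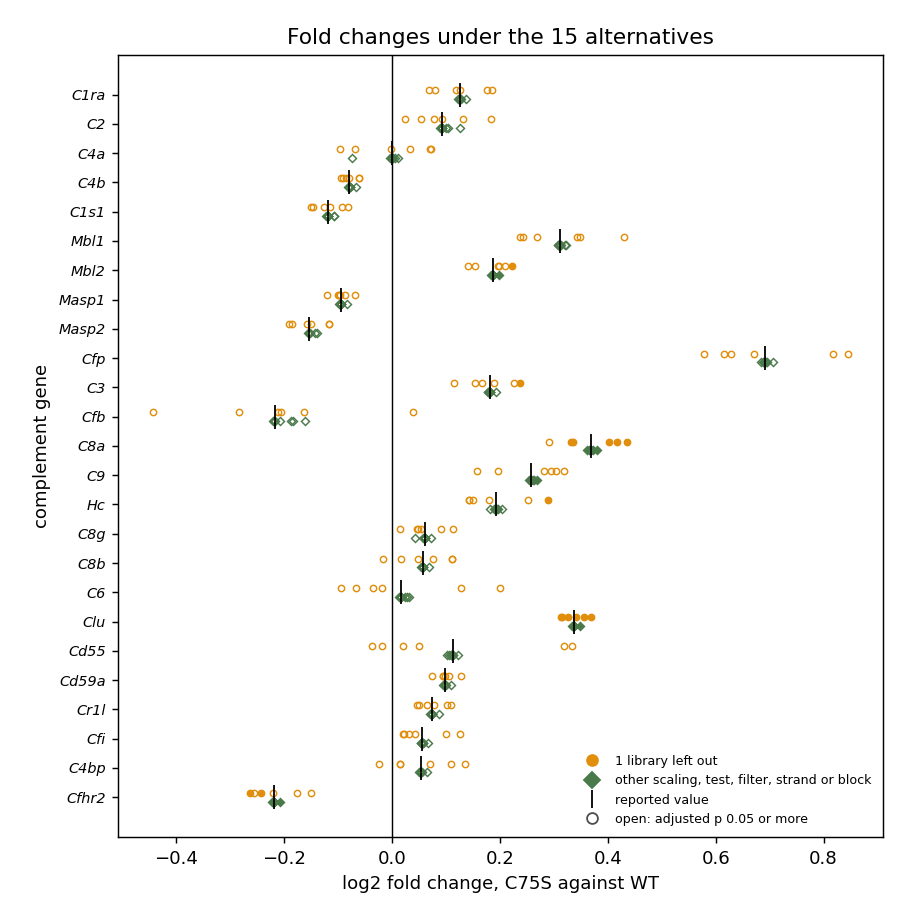
Log2 fold change of each tested complement gene as reported (black bar), with 1 library left out (orange) and under other scalings, tests, filters, strand counting or a block (green); filled symbols are past the threshold. *Clu* is filled throughout, while *Cfhr2* ranges from -0.26 to -0.15 and *C6* falls on both sides of 0.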

How the data were processed

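The files hold raw read counts per Ensembl gene in STAR's layout, deposited by the authors, with no normalisation. Trim Galore 0.6.6, STAR 2.7.9a, edgeR 3.36.0, mm10 and GRCm38 are named in the submitters' processing notes; the annotation release is not given in the sources used here. The reverse-strand counts were used, since they were 32.9 to 33.9 times the forward-strand counts, and the 4 summary rows were dropped. Multimapping reads (17.98% to 18.5% of reads) were not counted to genes. GENCODE M21 (GRCm38) gave symbols, positions and exon lengths.

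Genes were filtered with filterByExpr (minimum count 10, total 15), scaled by TMM and compared in edgeR 4.0.16 under R 4.3.3 by a robust two-sided quasi-likelihood fit with genotype as the single term. The SE is the log2 fold change over the root of F, and intervals use the fit's degrees of freedom. In simulated counts for 12741 genes, 74% of 200 genes changed 1.5-fold were called. False calls were 9.2% of the calls, above the share that the adjusted p threshold of 0.05 aims at. The called complement genes changed by less than 1.5-fold, so the 74% does not give the share found at their size of change. Between replicates of a genotype, chi-square per degree of freedom was 4.05 to 8.99, so no library was a duplicate. Members, gene lists and naming rules (per-library values for members called, at an unadjusted p under 0.05 or highest in their role) were chosen with earlier results of these data known. One further listed complement gene is not reported here. The labels give no batch. Alternatives included DESeq2 1.42.0 and limma-voom (limma 3.58.1).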

Additional observations from a re-analysis of the deposited data

Results flagged for a closer look

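Forward-strand counts, which the comparison did not use, were looked at for the 7 members with at least 30 of them in all. Those on *Clu* averaged 1.20 CPM in C75S and stood at 1.38, 1.38 and 0.86 CPM in C75S and 0.62, 0.73 and 0.53 CPM in WT, without overlap, as for its reverse-strand level. They were 108 counts in all, or 0.024% of the *Clu* counts on both strands, and the difference was not tested. *Clu* was singled out here because its values did not overlap, so that lack of overlap is not separate evidence. On the reverse strand, all C75S values lay above all WT values in 9.02% of tested genes. That share was not computed for the forward strand. For the rest of the members looked at (*C2*, *C4a*, *Mbl2*, *Masp2*, *C3* and *C8g*), the forward-strand values of the genotypes overlapped.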

How the results depend on the processing

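The count of called genes (396) was 201 to 355 with 1 library left out, at 201, 246 and 253 on omission of WT replicate 2, WT replicate 3 or C75S replicate 1, and stayed within 1.5 times otherwise. The 2 complement genes called higher became 3 with upper-quartile scaling and 3 with DESeq2. They became 4 with library size alone, 6 with no filter beyond 1 count and 4 with the replicate block, and 1 to 4 with 1 library left out. The 1 gene called lower became 0 with limma-voom and 0 to 1 with 1 library left out. Genes added in some fits were *Mbl2* (6 of 15 alternatives), *C9* (3), *C3* (2) and *Hc* (2). Of 373 fold changes of the 25 members over the 15 alternatives, 340 kept their direction and their side of the threshold, 13 gained a call, 6 lost one and 14 changed sign, none of these past 0.10 in size. Sign changes were *C4a* at -0.003 (-0.0028) with no filter and -0.0739 in the unstranded column, and *Serping1* at 0.01 (0.0083) with library size alone. With 1 library left out, the lowest and highest log2 fold changes were -0.0955 and 0.0723 for *C4a*, -0.0945 and 0.1998 for *C6*, -0.0233 and 0.1363 for *C4bp*, -0.0375 and 0.3344 for *Cd55*, -0.0165 and 0.112 for *C8b*, -0.4425 and 0.0387 for *Cfb* and -0.0437 and 0.0553 for *Serping1*. The fits of *Serping1*, *Vtn* and *Cpn1* were added after the data were seen. Over all genes tested, same-numbered libraries showed no common deviation (correlations 0.02, -0.04 and 0.03), and not every library correlated best with its own number. Correlations over all genes cannot settle whether the numbers pair libraries, so the numbers serve here only as names. The replicate block moved the count of called genes to 480. With it *C9* was called (edgeR adjusted p = 0.0121) and *Hc* was just short of the threshold (0.0529). The causes of these shifts were not tested. Depth limited 7 members, with 2 to 32 counts in all.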
